A study of Homo sapiens with 30 samples.

Results

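The genes described here encode the proteins that mark and load replication origins: the origin recognition complex subunits ORC1, ORC2, ORC3, ORC4, ORC5 and ORC6, the loading factors CDC6 and CDT1, and geminin (GMNN), which inhibits CDT1. They were given as a list of names by a rule that uses no measured value, although earlier results of these data were known when the list was drawn up, and all 9 were found among the 60617 genes listed in each library. The study measured mRNA by RNA sequencing in HCT116 and SW480, 2 established human colorectal cancer lines, after small interfering RNAs (siRNAs) had depleted BRD8 or TIP60. BRD8 is a bromodomain protein and TIP60, encoded by KAT5, is the histone acetyltransferase of the same chromatin complex. Each line had 5 groups of 3 libraries: a control siRNA (siControl), siBRD8-6, siBRD8-36, siTIP60-2 and siTIP60-11, which makes 10 groups and 30 libraries. Cells of every group, controls included, received 10 nM siRNA with a lipid reagent and were harvested after 48 h. Neither line carries any other stated alteration for this study. Each line was grown in its own medium, so line and medium cannot be told apart. The labels do not say that the 3 replicates of a group came from separate cultures, and p-values here reflect only how far these libraries scatter, which may be technical scatter.

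ORC binds origins, and CDC6 joins it as cells leave mitosis. CDT1 then brings the MCM helicase, which ORC and CDC6 load onto DNA, and this licenses the origin to fire. Once S phase begins, CDT1 is destroyed and geminin binds what remains, so that no origin is licensed again in the same cycle. ORC1, CDC6 and CDT1 are textbook targets of E2F transcription factors, which act at the passage from G1 to S phase.

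The promoters of 5 of these genes are printed here because ORC1, ORC6, CDC6 and CDT1 had the largest falls after BRD8 depletion in HCT116, while ORC5 took a separate course. Each window runs from 250 bases before to 50 bases after a RefSeq transcription start (GRCh38.p14), and is written 5′ to 3′ on the gene's own strand. Capitals mark the letters of an E2F motif, which was searched on both strands. The letters searched were TTGGCGC first, then the spelling TTCCCGC, then the spelling TTGCCGC and lastly the spelling TTCGCGC. The windows are chr1:52404374-52404673 (minus strand) for ORC1, chr16:46689409-46689708 (plus) for ORC6, chr17:40287629-40287928 (plus) for CDC6, chr16:88803539-88803838 (plus) for CDT1 and chr7:104207964-104208263 (minus) for ORC5.
ORC1: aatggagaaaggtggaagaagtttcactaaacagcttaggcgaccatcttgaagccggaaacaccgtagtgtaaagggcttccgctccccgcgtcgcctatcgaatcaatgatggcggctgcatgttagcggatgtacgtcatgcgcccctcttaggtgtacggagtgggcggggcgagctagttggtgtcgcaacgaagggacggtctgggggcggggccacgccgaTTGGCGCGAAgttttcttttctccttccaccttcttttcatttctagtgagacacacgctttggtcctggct
ORC6: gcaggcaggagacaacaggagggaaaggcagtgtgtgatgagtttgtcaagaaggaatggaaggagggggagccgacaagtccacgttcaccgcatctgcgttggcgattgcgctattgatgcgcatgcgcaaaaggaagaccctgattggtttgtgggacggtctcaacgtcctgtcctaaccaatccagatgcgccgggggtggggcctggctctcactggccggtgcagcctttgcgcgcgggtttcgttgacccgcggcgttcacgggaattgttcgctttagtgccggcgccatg
CDC6: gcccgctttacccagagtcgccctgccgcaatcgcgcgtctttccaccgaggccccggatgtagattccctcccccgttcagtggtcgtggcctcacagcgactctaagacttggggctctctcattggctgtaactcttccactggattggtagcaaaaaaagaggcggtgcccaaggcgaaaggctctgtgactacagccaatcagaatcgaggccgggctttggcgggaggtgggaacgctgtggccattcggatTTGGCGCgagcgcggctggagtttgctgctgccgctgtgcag
CDT1: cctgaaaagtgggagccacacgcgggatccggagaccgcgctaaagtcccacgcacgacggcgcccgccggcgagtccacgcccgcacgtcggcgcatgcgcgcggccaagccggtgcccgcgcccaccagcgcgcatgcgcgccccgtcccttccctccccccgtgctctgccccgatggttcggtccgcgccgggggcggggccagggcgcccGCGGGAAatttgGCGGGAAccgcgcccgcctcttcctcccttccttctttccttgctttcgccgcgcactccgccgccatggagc
ORC5: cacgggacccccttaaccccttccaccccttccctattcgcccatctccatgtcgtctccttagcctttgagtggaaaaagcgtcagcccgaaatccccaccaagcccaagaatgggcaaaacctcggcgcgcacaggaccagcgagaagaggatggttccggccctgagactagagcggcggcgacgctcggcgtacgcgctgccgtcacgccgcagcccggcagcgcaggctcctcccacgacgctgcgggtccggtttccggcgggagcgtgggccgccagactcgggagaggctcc

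ORC1 held a pair of overlapping E2F matches that began 22 and 19 bases before its start site, on opposite strands. CDT1 held 2 matches, 35 and 23 bases before the start, and CDC6 held 1 that began at base 9 of the transcript. ORC6 and ORC5 held none, and neither did the windows of ORC2 and ORC4. ORC3 had 1 match 12 bases before its start, and GMNN had 1 in the second of its 2 windows, 79 bases before that start. In all, 5 of the 11 windows of the 9 genes held an E2F match, against 13% of 35116 windows of the same length. The CCAAT box, searched as CCAAT on both strands, was in the windows of ORC1, ORC2, ORC3, ORC6 and CDC6 and in the second GMNN window, and in 34.6% of all windows. In ORC1 a CCAAT box on the opposite strand shared bases with the E2F matches. The cell cycle homology element, searched as TTTGAA or TTCGAA on both strands, was in none of the 11 windows and in 16.4% of all windows. These matches describe letters only, and binding was not measured.

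The genes lie on several chromosomes (GRCh38, GENCODE 29). ORC1 (ENSG00000085840) spans chr1:52372829-52404459, ORC2 (ENSG00000115942) chr2:200908973-200963680, ORC3 (ENSG00000135336) chr6:87590067-87667453 and ORC4 (ENSG00000115947) chr2:147930397-148021604. ORC5 (ENSG00000164815) spans chr7:104126341-104208047 and ORC6 (ENSG00000091651) chr16:46689643-46698394. CDC6 (ENSG00000094804) spans chr17:40287633-40304657, CDT1 (ENSG00000167513) chr16:88803213-88809258 and GMNN (ENSG00000112312) chr6:24774931-24786099. The span of ORC2 overlaps that of an antisense gene over 418 bases. The span of ORC4 overlaps those of ACVR2A and MBD5, on the other strand, over 430 and 594 bases. Whether exons lie in these overlaps was not examined. The library kit keeps strand, but whether strand was used in counting is not given in the sources used here, so the counts of ORC2 and ORC4 may include some reads of those neighbours.

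Libraries of HCT116 held 13.4 to 18.6 M counts and those of SW480 7.07 to 11.7 M, with the SW480 controls the shallowest at 7.07 to 7.69 M. Behind the members' values were from 35 counts (ORC1, SW480, siBRD8-36) to 2449 counts (CDC6, HCT116, control) per library. The targeted genes fell: BRD8 went from a mean of 42.9 CPM (counts scaled to library size, with TMM factors) in HCT116 controls to 8.92 and 6.04 with its siRNAs, and from 52.2 to 13.2 and 11.7 in SW480. KAT5 went from 49.6 to 3.64 and 4.87 CPM with its siRNAs in HCT116, and from 37.8 to 3.08 and 5.28 in SW480. With siBRD8-36, KAT5 counts also fell, by 0.31 on the log2 scale in HCT116 and by 0.41 in SW480. The adjusted p was 8.03e-05 and 0.000206 by edgeR's quasi-likelihood test, so BRD8 and KAT5 were both lower with siBRD8-36. In TPM (transcript levels scaled to gene length and library total), mean KAT5 in SW480 was 34.8 in controls and 33.1 with siBRD8-36, so that fall depended on scale. With siBRD8-6, KAT5 rose by 0.14 in HCT116 (adjusted p = 0.0373), and its change in SW480 was 0.07 (adjusted p = 0.490). HCT116 siControl replicate 2 stood apart from its group, with a chi-square per gene of 15.9 and 21.3 against the other two and 3.72 between those. Epithelial markers EPCAM, KRT8, KRT18 and KRT19 were present in every library, at 146 TPM or more. Others of the same list were lower: CDH1 ranged from 2.38 to 62.9 TPM, CDX2 from 6.42 to 36.9 and VIL1 from 0 to 4.84. The differentiation markers CDX1, LGALS4 and KRT20 were at 0 in 26, 17 and 13 of the 30 libraries, and the endothelial marker CDH5 at 0 in all 30. Summed over 10 epithelial genes, the level was 3559 to 3584 TPM in HCT116 controls and 5779 to 6987 in depleted HCT116 libraries, and 3065 to 3205 and 3571 to 5292 in SW480. Most of that sum came from KRT8, KRT18 and KRT19, with medians of 2009, 1353 and 913 TPM over all libraries. The 6 fibroblast markers summed to 7.28 to 11.7 TPM in HCT116 controls and 28.2 to 29.7 with siBRD8-36, nearly all of it COL1A1, with COL1A2, DCN and LUM at 0 in 26, 29 and 28 libraries. Leukocyte and endothelial markers summed to at most 4.31 and 1.11 TPM in any library. The part of these levels in the results below was not tested.

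In control cells, ORC1 was the least abundant of the 9 mRNAs in both lines. CDC6 was the most abundant in HCT116, and in SW480 its range overlapped that of ORC4. On the TPM scale, which allows genes to be compared, CDC6 read 142, 106 and 133 in the 3 HCT116 libraries and ORC1 read 15.9, 11.2 and 15. The order of mean levels in HCT116 was CDC6 (127), CDT1 (76.7), GMNN (56.6), ORC4 (47.0), ORC2 (44.0), ORC6 (37.0), ORC5 (27.9), ORC3 (24.3) and ORC1 (14). The libraries' ranges overlapped between neighbours from ORC4 down to ORC3, so that stretch of the order is not resolved, while each of the other neighbours was separate. In SW480 the order was CDC6 (78.1), ORC4 (76.7), ORC5 (69.8), GMNN (55.8), ORC2 (37.5), ORC3 (28.7), ORC6 (22.4), CDT1 (13.4) and ORC1 (3.43), and only the first 3 overlapped as neighbours.

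**Figure D1:**
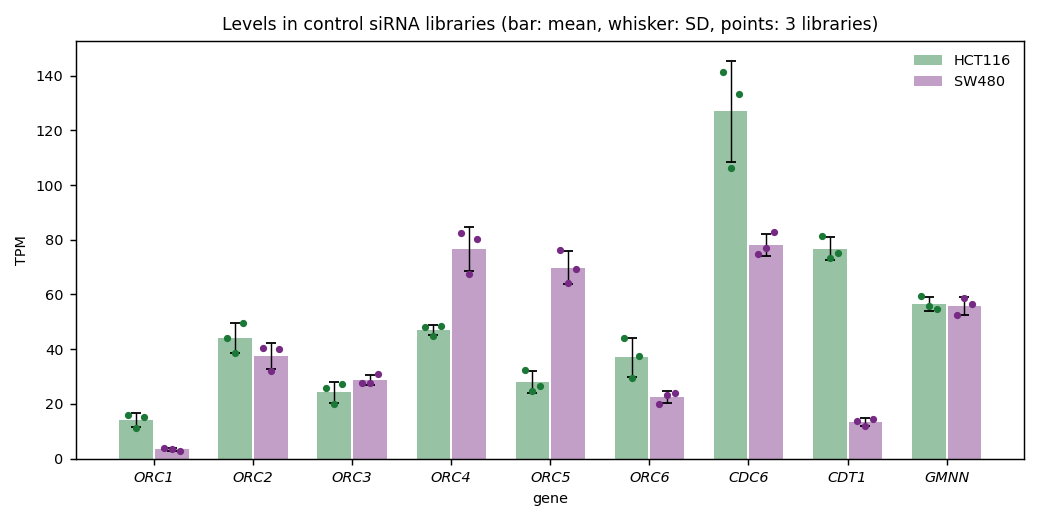
Levels of the 9 genes in the control siRNA libraries, in TPM, with green for HCT116 and purple for SW480; bars are means, whiskers SDs and points the 3 libraries of each line. ORC1 is lowest in both lines, CDC6 is highest in HCT116 and overlaps ORC4 in SW480, and CDT1 stands at a mean of 76.7 TPM in HCT116 and 13.4 in SW480.

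Within a gene, the lines were compared on the count scale in 1 fit over all 30 libraries. CDT1, the MCM loader, was lower in SW480 controls, with a log2 difference of −2.21 ± 0.083 (standard error; edgeR's quasi-likelihood test, adjusted p = 2.01e-22), and so was ORC1, at −1.74 ± 0.126 (adjusted p = 1.75e-14). ORC5 was higher in SW480 by 1.63 ± 0.065 (adjusted p = 1.23e-21) and ORC4 by 0.99 ± 0.065 (adjusted p = 1.23e-15). ORC3 was also higher (0.36), and ORC6 (−0.44) and CDC6 (−0.30) were lower. ORC2 (0.25) and GMNN (0.27) were higher on the count scale but not on the uncentred TPM scale, where their differences were −0.23 and −0.02. All 9 genes passed the test between lines, against 78.5% of the 17411 genes tested, so a call here sets the members apart from few genes. The differences ran both ways.

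Depletion of BRD8 in HCT116 lowered the mRNAs of ORC1, ORC2, ORC6, CDC6 and CDT1. A gene was called when both siRNAs of a target moved it in 1 direction and the larger of their 2 p-values, adjusted over all genes by the Benjamini-Hochberg method, was under 0.05. For a target against its control, the change given is the mean over its 2 siRNAs. Its standard error (±) or interval leaves out how far the siRNAs differ from each other. The adjusted p beside it is that of the larger p-value, not of the mean. By that rule 5 of the 9 members fell and none rose, against 12.8% of the 15919 tested genes called lower and 25.6% called either way. The members' median change was −0.55 on the log2 scale, and that of all genes −0.02. The same 5 members had all 6 depleted libraries below all 3 control libraries, which held for 14.7% of all genes. In bulk libraries, fewer cells in the phase that makes an mRNA and less of that mRNA per cell cannot be told apart.

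ORC1, the subunit whose level varies most over the cell cycle, read 32.6, 26.5 and 30.6 CPM in HCT116 controls, 18.9, 22.5 and 20.2 with siBRD8-6, and 9.80, 10.2 and 8.78 with siBRD8-36. The 3 groups did not overlap, with siBRD8-36 lowest. Over both siRNAs ORC1 fell by 1.09 ± 0.083 (adjusted p = 0.000165). ORC2, a core subunit, read 54.8, 51.3 and 54.9 CPM in controls, 36.8, 32.1 and 37.1 with siBRD8-6, and 39.1, 36.7 and 37.5 with siBRD8-36. Both depleted groups lay below the controls and overlapped each other. ORC2 fell by 0.55 ± 0.053 (adjusted p = 4.44e-06). ORC6, the smallest subunit and the one least tightly bound to the others, read 40.8, 35 and 34.7 CPM in controls, 28.0, 30.9 and 27.6 with siBRD8-6, and 7.65, 6.43 and 6.73 with siBRD8-36. Its siBRD8-36 libraries were far below the siBRD8-6 libraries, which were below the controls. ORC6 fell by 1.38 ± 0.070 (adjusted p = 0.00121), a mean of unlike falls. It stood at 78.3% of the control mean with siBRD8-6 and at 18.8% with siBRD8-36.

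ORC3, ORC4 and ORC5 did not pass in HCT116, and in each case at least 1 siRNA did not lower them. ORC3, a core subunit that holds ORC2, read 37.9, 32.7 and 39.0 CPM in controls, 33.9, 34.2 and 34.6 with siBRD8-6, and 25.3, 21.3 and 21.8 with siBRD8-36. Only the siBRD8-36 libraries lay apart from the controls. The log2 change of ORC3 was −0.10 (95% interval −0.24 to 0.05) with siBRD8-6 and −0.67 with siBRD8-36. ORC4, an ATPase-family subunit, read 42.8, 44.9 and 42.5 CPM in controls, 45.3, 43.6 and 46.9 with siBRD8-6, and 28.0, 27.7 and 26.8 with siBRD8-36. Here too siBRD8-36 alone lay below the controls, and the log2 changes were 0.07 (interval −0.05 to 0.18) and −0.65. ORC5, another ATPase-family subunit, read 32.1, 32.6 and 31.9 CPM in controls, 28.4, 27.6 and 27.7 with siBRD8-6, and 38.9, 34.2 and 39.3 with siBRD8-36. The controls lay between the depleted groups without overlap: ORC5 fell by 0.20 with siBRD8-6 (adjusted p = 0.0177) and rose by 0.23 with siBRD8-36 (adjusted p = 0.00542).

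Both loading factors fell. CDC6, the ATPase that joins ORC, read 137, 118 and 128 CPM in HCT116 controls, 107, 112 and 105 with siBRD8-6, and 37.5, 39.7 and 35.8 with siBRD8-36. The siBRD8-6 libraries lay just under the controls and the siBRD8-36 libraries far under both. CDC6 fell by 1.00 ± 0.052 (adjusted p = 0.00337). CDT1 read 132, 143 and 129 CPM in controls, 103, 103 and 90.6 with siBRD8-6, and 30.1, 33.7 and 32.2 with siBRD8-36. No library of 1 group overlapped another group. CDT1 fell by 1.25 ± 0.054 (adjusted p = 1.88e-05). GMNN, the inhibitor of CDT1, read 44.4, 48.6 and 42.0 CPM in controls, 44.8, 45.8 and 42.6 with siBRD8-6, and 31.3, 28.7 and 30.9 with siBRD8-36. Its siBRD8-6 libraries lay within the control range and its siBRD8-36 libraries below it, and its log2 changes were −0.01 (interval −0.14 to 0.11) and −0.56. On uncentred TPM with limma, ORC6 and CDC6 kept their fall (−1.28 and −0.97) but missed the threshold in HCT116, with adjusted p = 0.115 and 0.180. Without HCT116 siControl replicate 2, as without any other single library of the comparison, 5 members were called.

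**Figure D2:**
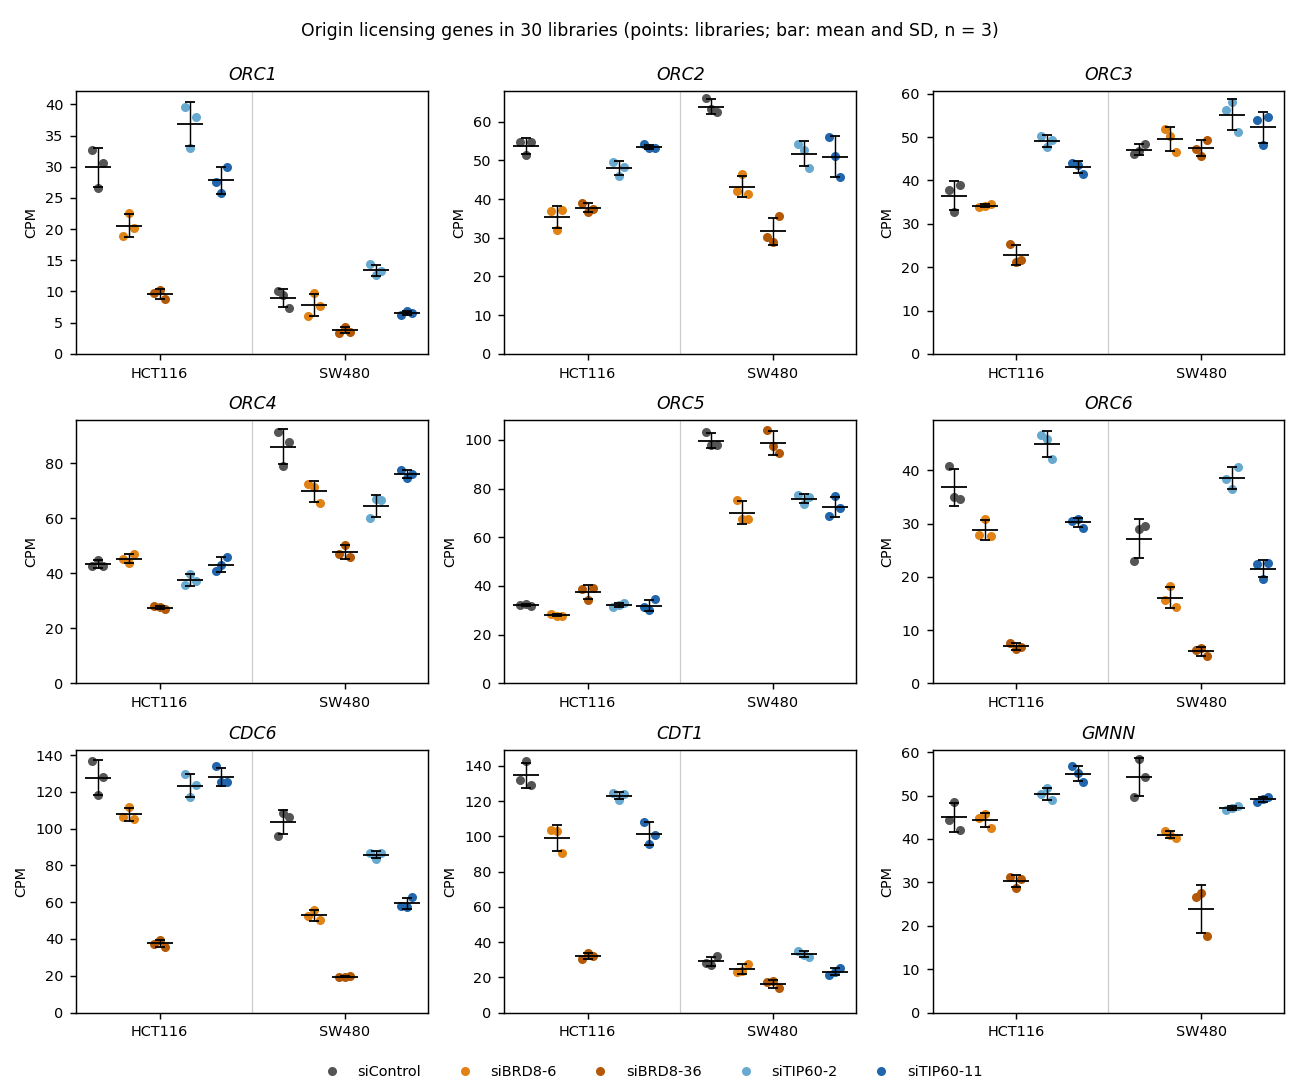
Level of each of the 9 genes in every library, in TMM-scaled CPM, in 1 panel per gene, with HCT116 on the left and SW480 on the right of each panel and the 5 siRNA groups by colour; points are libraries and horizontal lines the group means. The siBRD8-36 libraries are the lowest of their line for ORC1, ORC6, CDC6 and CDT1, and ORC5 is the only gene whose siBRD8-36 libraries reach or pass the control level in both lines while its siBRD8-6 libraries lie below.

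In SW480, depletion of BRD8 lowered ORC2, ORC4, ORC6, CDC6, CDT1 and GMNN. These 6 of 9 were called lower and none higher, against 14.5% of the 15277 tested genes called lower and 27.8% called either way. The members' median change was −0.78, and that of all genes −0.00. With the line's own TMM scaling the same 6 had all depleted libraries below all controls, as did 18.3% of all genes. Scale matters more in this line: TPM moved the median change of all genes by 0.23 upward relative to the count scale after BRD8 depletion, and by 0.17 after TIP60 depletion, against 0.03 or less in HCT116. The changes given here are therefore relative to the bulk of genes. With limma on uncentred TPM, 2 of the 6 (ORC6 and CDC6) passed, and with TPM centred on each library's median, an alternative added after the data were seen, 5 of the 6 did, all but CDT1.

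Among the ORC subunits in SW480, ORC2 read 66.0, 63.1 and 62.4 CPM in controls, 42.0, 46.3 and 41.3 with siBRD8-6, and 30.2, 29 and 35.6 with siBRD8-36. The 3 groups were separate, and ORC2 fell by 0.85 ± 0.072 (adjusted p = 1.56e-06). ORC4 read 91.2, 78.9 and 87.8 CPM in controls, 72.4, 71.3 and 65.5 with siBRD8-6, and 46.9, 50.4 and 45.7 with siBRD8-36. These groups were separate too, and ORC4 fell by 0.64 ± 0.061 (adjusted p = 0.00028). ORC6 read 23.0, 28.9 and 29.6 CPM in controls, 15.7, 18.3 and 14.4 with siBRD8-6, and 6.26, 6.58 and 5.07 with siBRD8-36. Again no groups overlapped, and ORC6 fell by 1.53 ± 0.104 (adjusted p = 2.53e-06). ORC1 read 10.0, 9.43 and 7.30 CPM in controls, 6.13, 9.73 and 7.68 with siBRD8-6, and 3.43, 4.35 and 3.55 with siBRD8-36. Controls and siBRD8-6 overlapped, and only siBRD8-36 lay below. The log2 change of ORC1 was −0.23 (interval −0.55 to 0.09) with siBRD8-6 and −1.33 (−1.68 to −0.98) with siBRD8-36, and its counts, 35 to 39 per siBRD8-36 library, were the lowest of any member.

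ORC3 read 46.1, 46.9 and 48.5 CPM in SW480 controls, 51.9, 50.2 and 46.6 with siBRD8-6, and 47.3, 45.6 and 49.4 with siBRD8-36. All 3 groups overlapped on this scale, and the mean log2 change was −0.02 (interval −0.15 to 0.10). In TPM, ORC3 with siBRD8-6 (35.55 to 37.83) and siBRD8-36 (31.30 to 34.73) lay above its controls (27.56 to 30.80). ORC5 read 103, 97.8 and 97.9 CPM in controls, 75.5, 67.3 and 67.3 with siBRD8-6, and 104, 97.6 and 94.6 with siBRD8-36. On the count scale its siBRD8-6 libraries were low and its siBRD8-36 libraries at the control level, with log2 changes of −0.55 (adjusted p = 7.81e-08) and −0.09 (interval −0.22 to 0.03). In TPM, ORC5 with siBRD8-36 (80.73 to 83.56) lay above its controls (64.09 to 76.09), and with siBRD8-6 (54.97 to 62.20) below them.

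CDC6 read 96.2, 108 and 106 CPM in SW480 controls, 52.6, 56.0 and 50.1 with siBRD8-6, and 19.4, 19.3 and 20.1 with siBRD8-36. The groups were far apart, and CDC6 fell by 1.75 ± 0.059 (adjusted p = 3.04e-12). CDT1 read 28.1, 27.1 and 31.9 CPM in controls, 23.0, 23.4 and 27.7 with siBRD8-6, and 17.2, 17.6 and 13.8 with siBRD8-36. Its highest siBRD8-6 library lay above the lowest control on the printed scale, which is common to both lines, and CDT1 fell by 0.59 ± 0.091 (adjusted p = 0.0475), the call nearest to the threshold. It was lost in 13 of the 19 alternative settings, among them DESeq2 (adjusted p = 0.0686). Leaving out 1 of 5 single libraries also ended it: siControl replicate 1 or 3, siBRD8-6 replicate 1 or 2, or siBRD8-36 replicate 1. GMNN read 49.7, 58.4 and 54.4 CPM in controls, 41.8, 40.9 and 40.2 with siBRD8-6, and 26.5, 27.6 and 17.5 with siBRD8-36. The 3 groups were separate, and GMNN fell by 0.86 ± 0.088 (adjusted p = 0.000985).

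The siRNAs against BRD8 were also compared directly, since they shared a direction for most members but not a size. With siBRD8-36, 7 of 9 members were lower than with siBRD8-6 in HCT116 and ORC5 was higher. Of all genes there, 56.7% differed either way and 28.3% were lower. In SW480 7 were lower and ORC5 was higher as well, against 52.8% of genes either way and 27.0% lower. ORC6 differed by −2.04 ± 0.093 in HCT116 and −1.46 ± 0.138 in SW480, and CDC6 by −1.51 ± 0.064 and −1.47 ± 0.077. CDT1 differed by −1.62 ± 0.068 in HCT116 and −0.65 ± 0.107 in SW480, and ORC1 by −1.10 ± 0.107 and −1.10 ± 0.177. ORC5 was higher with siBRD8-36 by 0.43 ± 0.066 (adjusted p = 1.61e-05) and 0.46 ± 0.065 (adjusted p = 9.87e-07). ORC2 in HCT116 (0.10, interval −0.02 to 0.23) and ORC3 in SW480 (−0.10, interval −0.24 to 0.04) did not pass. The siRNA with the larger changes was also the one with which KAT5 fell in both lines on the count scale, and the part of that in the difference was not tested.

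Depletion of TIP60 in HCT116 raised ORC3 and GMNN with both siRNAs on the count scale. These 2 of 9 members were called higher and none lower, against 14.1% of genes called higher and 28.6% called either way. Such a count does not set the members apart from other genes. The members' median change was −0.00, and that of all genes −0.03. ORC3 read 50.3, 47.7 and 49.4 CPM with siTIP60-2 and 43.9, 43.7 and 41.5 with siTIP60-11, all above its control libraries of 37.9, 32.7 and 39.0. It rose by 0.34 ± 0.063 (adjusted p = 0.0128). GMNN read 50.3, 51.7 and 49.1 CPM with siTIP60-2 and 56.7, 55.2 and 53.2 with siTIP60-11, above the controls of 44.4, 48.6 and 42.0. It rose by 0.24 ± 0.054 (adjusted p = 0.0434). That call was lost in 13 of 19 alternative settings, with adjusted p from 0.00551 to 0.156 over them. It was lost without any 1 of 8 of the 9 libraries compared, all but siControl replicate 2. ORC3 was lost on the TPM scale, with adjusted p = 0.591, and 0.0641 after centring. The 2 genes had all 6 depleted libraries above all controls, as did 16.6% of genes.

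CDT1 had all 6 TIP60-depleted HCT116 libraries below its controls, as did 17.0% of genes, but missed the threshold. It read 124, 121 and 124 CPM with siTIP60-2 and 108, 95.7 and 101 with siTIP60-11, against 132, 143 and 129 in controls. Its log2 change was −0.12 for siTIP60-2 and −0.39 for siTIP60-11, at adjusted p = 0.105 and 2.93e-05. CDC6 read 130, 117 and 124 CPM with siTIP60-2 and 134, 125 and 125 with siTIP60-11, within or near its control range, with a mean change of −0.02 (interval −0.12 to 0.09). ORC2 (−0.08), ORC4 (−0.10) and ORC5 (−0.00) had small mean changes, and with siTIP60-2 alone ORC2 and ORC4 fell by 0.16 and 0.20.

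In SW480, depletion of TIP60 lowered ORC2, ORC4, ORC5 and CDC6. These 4 of 9 were called lower and none higher, against 12.4% of genes called lower and 24.2% called either way. The members' median change was −0.20, and that of all genes 0.01. CDC6 read 86.8, 83.7 and 87.0 CPM with siTIP60-2 and 58.0, 57.1 and 62.8 with siTIP60-11, both below the controls of 96.2, 108 and 106 and apart from each other. It fell by 0.57 ± 0.055 (adjusted p = 0.000713). ORC5 read 77.2, 73.7 and 76.5 CPM with siTIP60-2 and 68.5, 76.8 and 72.1 with siTIP60-11, against 103, 97.8 and 97.9 in controls. Its depleted groups overlapped each other and not the controls, and ORC5 fell by 0.46 ± 0.057 (adjusted p = 1.83e-05). ORC4 read 59.9, 67.1 and 66.6 CPM with siTIP60-2 and 77.6, 74.6 and 76.1 with siTIP60-11, against 91.2, 78.9 and 87.8 in controls. The siTIP60-11 libraries lay just under the lowest control, and ORC4 fell by 0.33 ± 0.061 (adjusted p = 0.0229). This call was lost in 7 of 19 settings, 4 of them the omission of siControl replicate 1 or 3 or of siTIP60-11 replicate 2 or 3. ORC2 read 54.3, 52.7 and 48.1 CPM with siTIP60-2 and 56.1, 51.2 and 45.6 with siTIP60-11, all below the controls of 66.0, 63.1 and 62.4. On the count scale ORC2 fell by 0.35 ± 0.071 (adjusted p = 0.00272), while on the uncentred TPM scale its difference was 0.04. On uncentred TPM none of the 4 passed with limma, and after centring ORC5 and CDC6 did.

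GMNN in SW480 read 46.6, 47.1 and 47.6 CPM with siTIP60-2 and 48.4, 49.3 and 49.6 with siTIP60-11, all under the controls of 49.7, 58.4 and 54.4, but its change of −0.20 (interval −0.37 to −0.04) was not called (adjusted p = 0.201). With GMNN, 5 members had all 6 depleted libraries below all controls, as did 17.7% of genes. ORC3 read 51.1 to 58.1 CPM with siTIP60-2 and 48.2 to 54.7 with siTIP60-11, partly above its controls, and its change of 0.16 was not called (adjusted p = 0.283). The BRD8 and TIP60 comparisons of a line share their 3 control libraries, so an extreme control library moves both.

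ORC6 moved in opposite directions with the TIP60 siRNAs in both lines, and ORC1 did so in SW480. ORC1 in HCT116 read 39.6, 33.0 and 37.9 CPM with siTIP60-2 and 27.6, 25.8 and 30 with siTIP60-11, against controls of 32.6, 26.5 and 30.6, with the siTIP60-11 range overlapping the controls. In SW480 it read 14.3, 12.6 and 13.3 CPM with siTIP60-2 and 6.16, 6.80 and 6.62 with siTIP60-11, around controls of 10.0, 9.43 and 7.30 and without overlap. ORC1 rose with siTIP60-2 by 0.30 in HCT116 and by 0.55 in SW480, at adjusted p = 0.00917 and 0.00378, and fell with siTIP60-11 by 0.49 in SW480 (adjusted p = 0.0159). Its change with siTIP60-11 in HCT116 was −0.10 (interval −0.28 to 0.08). ORC6 in HCT116 read 46.6, 46.0 and 42.1 CPM with siTIP60-2 and 30.6, 30.8 and 29.2 with siTIP60-11, around controls of 40.8, 35 and 34.7. In SW480 it read 38.4, 36.5 and 40.7 with siTIP60-2 and 22.3, 19.7 and 22.6 with siTIP60-11, around controls of 23.0, 28.9 and 29.6. On this scale, in each line the siTIP60-2 libraries were above and the siTIP60-11 libraries below every control. In TPM the HCT116 controls (29.6 to 44.0) overlapped both siTIP60-2 (41.0 to 49.9) and siTIP60-11 (29.9 to 32.9). In SW480 TPM, siTIP60-2 (37.1 to 43.0) stayed above the controls (19.8 to 24.0) and siTIP60-11 (18.4 to 22.4) overlapped them. ORC6 rose with siTIP60-2 by 0.29 (adjusted p = 0.00301) and 0.48 (adjusted p = 0.000379), and fell with siTIP60-11 by 0.28 (adjusted p = 0.00483) and 0.37 (adjusted p = 0.00652).

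Compared directly, siTIP60-11 gave lower levels than siTIP60-2 for ORC1, ORC3, ORC6 and CDT1 and higher levels for ORC2 and ORC4 in HCT116, 6 members in all against 46.0% of genes. Without 1 library of these groups 4 members were called, or 3 without siTIP60-11 replicate 3. In SW480 siTIP60-11 gave lower levels for ORC1, ORC6, CDC6 and CDT1 and a higher level for ORC4, 5 members against 45.3% of genes. The differences of ORC1 were −0.40 ± 0.090 in HCT116 and −1.04 ± 0.153 in SW480, and those of ORC6 −0.56 ± 0.075 and −0.85 ± 0.103. CDT1 differed by −0.27 ± 0.062 and −0.52 ± 0.099. GMNN did not pass in either line (0.14, interval 0.02 to 0.26, and 0.05, interval −0.14 to 0.24).

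**Figure D3:**
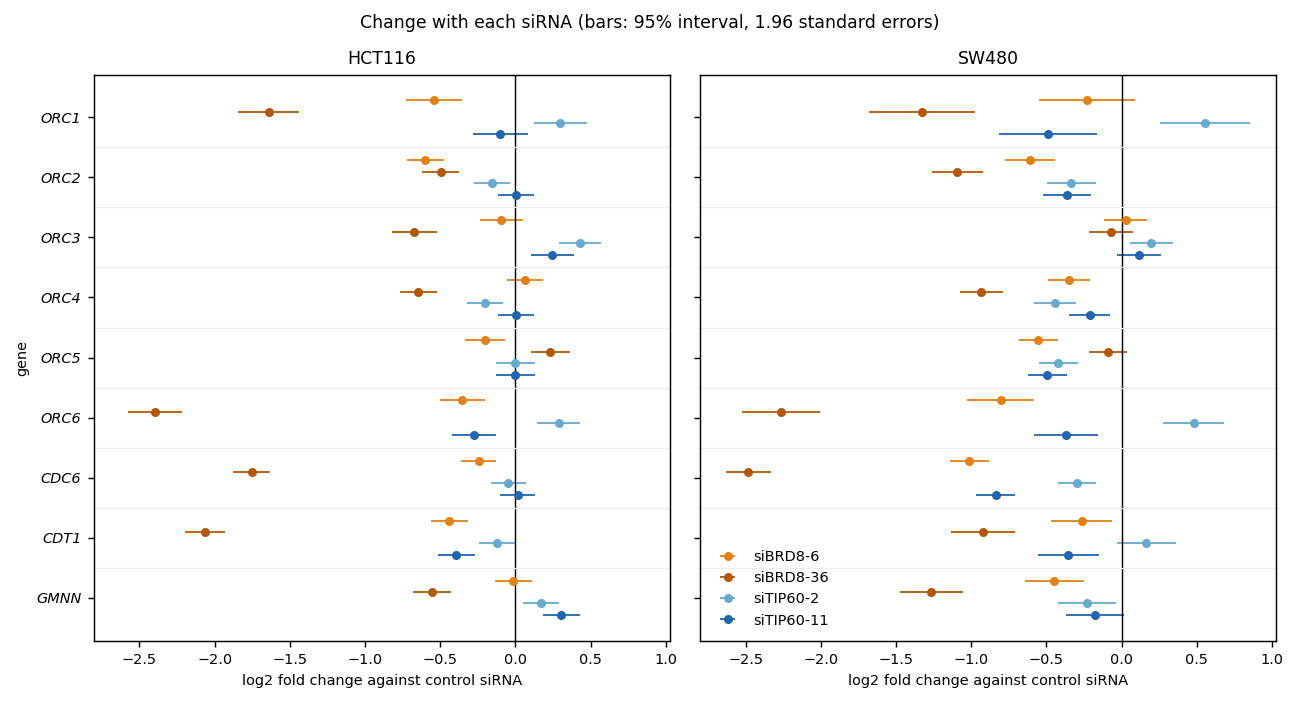
Change of each of the 9 genes with each siRNA against the control of its line, on the log2 scale from the count fit, with HCT116 on the left and SW480 on the right; points are estimates, bars 95% intervals and colours the 4 siRNAs. The siBRD8-36 points of ORC6 lie at −2.40 in HCT116 and −2.26 in SW480, while siTIP60-2 and siTIP60-11 lie on opposite sides of 0 for ORC6 in both lines.

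Set against TIP60 depletion directly, BRD8 depletion gave lower levels of 8 members in HCT116, all but ORC5, with 61.8% of genes different either way and 31.7% lower. In SW480 all 9 differed, 8 lower and ORC5 higher, against 59.9% of genes either way and 30.2% lower. The largest differences were those of ORC6, at −1.38 ± 0.060 for HCT116 and −1.59 ± 0.085 for SW480, at adjusted p = 5.41e-13 and 5.27e-15. CDC6 stood at −0.98 ± 0.044 and −1.18 ± 0.051, and ORC1 stood at −1.19 ± 0.070 and −0.81 ± 0.117. CDT1 stood at −0.99 ± 0.046 and −0.50 ± 0.073, and its inhibitor GMNN at −0.52 ± 0.044 and −0.65 ± 0.072. ORC5 differed by 0.01 (interval −0.08 to 0.11) in HCT116 and 0.14 ± 0.047 in SW480 (adjusted p = 0.014). The ORC4 call in HCT116 and the ORC3 call in SW480 were lost with each of the 3 TPM settings. The ORC5 call in SW480 was lost without siBRD8-6 replicate 1. These are differences between means of 2 siRNAs each, and the siRNAs of a target differed from each other as described above. In HCT116 the mean of ORC4 with siBRD8-6 (45.3 CPM) was above those with siTIP60-2 (37.6) and siTIP60-11 (43.1). In SW480 the siBRD8-6 means of ORC1 (7.85 CPM) and CDT1 (24.7) were above those with siTIP60-11 (6.53 and 23.2). That of ORC4 (69.7) was above siTIP60-2 (64.6). SW480 ORC5 was below both TIP60 groups (75.8 and 72.5) with siBRD8-6 (70.1) and above them with siBRD8-36 (98.8).

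Whether the lines responded alike was tested as an interaction, the change in SW480 minus the change in HCT116. Each change was the mean over the 2 siRNAs of a target, without the rule that both move 1 way. Opposite changes of 2 siRNAs, such as those of ORC5 after BRD8 depletion in HCT116, partly cancel in that mean. For BRD8 depletion 7 members passed, against 34.4% of genes. CDC6 fell further in SW480 (interaction −0.68 ± 0.078, adjusted p = 1.62e-08). GMNN, which fell in SW480 and was not called in HCT116, had an interaction of −0.50 ± 0.107 (adjusted p = 0.000324). CDT1 fell less in SW480 (0.73 ± 0.105, adjusted p = 1.35e-06), and ORC3 (0.43 ± 0.090, adjusted p = 0.000288) was lower after BRD8 depletion in HCT116 only with siBRD8-36 and with neither siRNA in SW480. ORC4 (−0.28, adjusted p = 0.00567) was lower in SW480 as well. ORC2 (−0.23, adjusted p = 0.0458) and ORC5 (−0.27, adjusted p = 0.00754) had interactions below 0 on the count scale and of 0.04 and 0.03 on the uncentred TPM scale. The ORC2 call was lost in 10 of 26 alternative settings, 7 of them the omission of a single library: HCT116 siControl replicate 2 or siBRD8-6 replicate 1 or 3, or SW480 siControl replicate 1 or 2 or siBRD8-6 replicate 1 or 3 (adjusted p = 0.0529 to 0.1004 without them). ORC1 (0.38, interval 0.05 to 0.71) and ORC6 (−0.09, interval −0.34 to 0.16) did not pass. The median interaction of all genes was 0.10.

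For TIP60 depletion 4 members passed the interaction, against 31.1% of genes. CDC6 (−0.51 ± 0.074, adjusted p = 1.48e-06), ORC5 (−0.42 ± 0.079, adjusted p = 9.23e-05) and GMNN (−0.40 ± 0.104, adjusted p = 0.00298) lay lower in SW480 relative to HCT116. ORC2 (−0.23, adjusted p = 0.0475) did so on the count scale and had an interaction of 0.13 on the uncentred TPM scale. This call was lost in 13 of 26 alternative settings, 10 of them the omission of a single library. Those were HCT116 siControl replicate 2, siTIP60-2 replicate 1 or 3 or any siTIP60-11 library, and SW480 siControl replicate 1 or 2, siTIP60-2 replicate 2 or siTIP60-11 replicate 3 (adjusted p = 0.0556 to 0.111 without them). ORC6 (0.09, interval −0.13 to 0.31) and ORC1 (−0.03, interval −0.34 to 0.28) did not pass. The TIP60 siRNAs moved ORC6 in opposite directions in both lines and ORC1 in SW480, so their means do not show a like response. The median interaction of all genes was 0.06. The lines also differed in depth and medium, which cannot be told apart from the line.

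Geminin protein binds CDT1, so the ratio of their mRNAs was set out for each library, as CDT1 TPM over GMNN TPM. In HCT116 it was 1.37, 1.32 and 1.38 in controls, 1.07, 1.04 and 0.954 with siBRD8-6, and 0.428, 0.516 and 0.478 with siBRD8-36. With siTIP60-2 it was 1.12, 1.08 and 1.10, and with siTIP60-11 0.870, 0.795 and 0.911. Every depleted library of HCT116 lay below every control library. The mean log2 ratio differed from control by −0.96 after BRD8 depletion and by −0.48 after TIP60 depletion. Each had p = 0.0238 in a two-sided exact permutation test, the smallest that 6 against 3 libraries can give, and 0.0476 after adjustment over 4 comparisons. That test treats the 6 libraries of 2 unlike siRNAs as 1 group and does not require each siRNA to differ from control. How often other pairs of genes separate in this way was not examined. In SW480 the ratio was 0.265, 0.201 and 0.258 in controls, with group means of 0.270 ± 0.0378 (SD, n = 3) with siBRD8-6 and 0.304 ± 0.0388 with siBRD8-36. It was 0.317 ± 0.0266 with siTIP60-2 and 0.218 ± 0.0142 with siTIP60-11. The siBRD8-36 libraries (0.282 to 0.349) and siTIP60-2 libraries (0.288 to 0.340) lay above every SW480 control, while those with siBRD8-6 overlapped the controls and those with siTIP60-11 lay within their range. The log2 differences from control in SW480 were 0.25 after BRD8 depletion (exact permutation p = 0.190, adjusted 0.254) and 0.13 after TIP60 depletion (exact permutation p = 0.524, adjusted 0.524), and neither passed the test over both siRNAs of a target. A ratio within a library shows unequal change of the 2 mRNAs. With 1 siRNA at a time, 3 against 3 libraries cannot go below p = 0.1 in the exact permutation test.

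**Figure D4:**
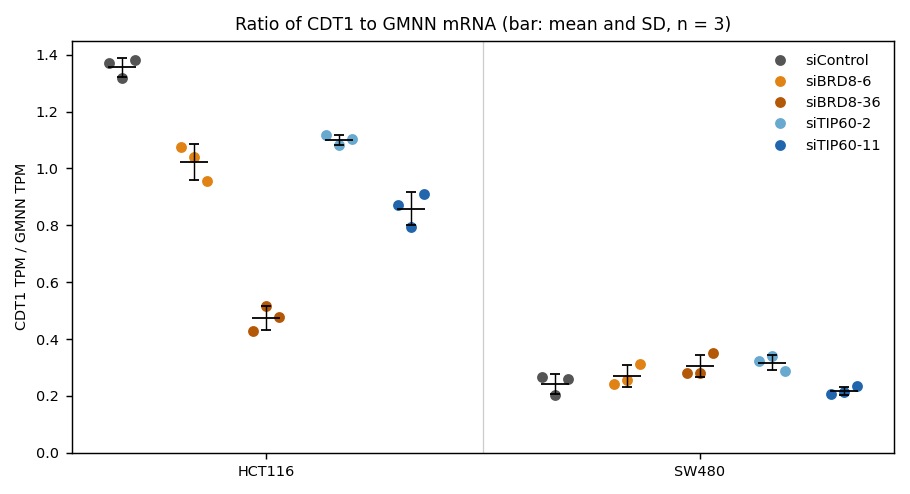
Ratio of CDT1 to GMNN mRNA (TPM over TPM) in every library, with the 5 siRNA groups by colour and HCT116 left of SW480; points are libraries, horizontal bars group means and whiskers SDs of 3 libraries. In HCT116 the controls sit between 1.32 and 1.38 and all depleted libraries below them, while in SW480 all libraries sit between 0.201 and 0.349.

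Other genes of licensing and its control are given for comparison, from lists drawn up by function. Each change is the mean over the 2 siRNAs of a target, which were unequal for many genes, and medians are taken over these means. Of all genes, 12.8% were called lower and 12.8% higher after BRD8 depletion in HCT116, and 14.5% and 13.3% in SW480. After BRD8 depletion, all 7 genes of the MCM helicase list fell in HCT116 (median −1.08) and 6 of 7 in SW480 (median −0.72). MCM4, a subunit of the helicase that CDT1 brings to ORC, fell by 1.44 ± 0.051 in HCT116 and by 0.81 ± 0.055 in SW480. Of 15 genes for origin firing, 8 fell in HCT116 (median −0.83) and 13 in SW480 (median −0.73), with none higher. CDC45, which joins the loaded helicase, fell in both lines, with changes of −1.38 ± 0.066 and −1.501 ± 0.111, and GINS1 fell by 1.01 ± 0.081 and by 1.16 ± 0.086. Of 21 tested genes for turnover of licensing factors, 9 fell and none rose in HCT116 (median −0.36), and 8 fell and 1 rose in SW480 (median −0.33). UBE2C, a ubiquitin-conjugating enzyme of the anaphase-promoting complex, fell by 1.38 ± 0.049 in HCT116 and by 1.35 ± 0.058 in SW480, and CCNE1, encoding cyclin E1, rose by 0.52 ± 0.137 in SW480. Of 9 other origin-binding or origin-modifying genes, 2 fell in HCT116 (median −0.24), while 2 fell and 2 rose in SW480 (median 0.05). MCM8 fell in both lines, by 0.82 ± 0.089 and by 0.63 ± 0.075, and KAT7, an acetyltransferase that modifies histone H4 at origins, rose by 0.36 ± 0.084 in SW480. Of 19 E2F, retinoblastoma and DREAM or MYB-MuvB genes, 6 fell and E2F5 rose in HCT116 (median −0.46), and 8 fell and 3 rose in SW480 (median −0.44). LIN9, a MuvB subunit, fell by 0.80 ± 0.080 and by 1.12 ± 0.122, and E2F5, a repressor-class E2F, rose by 0.88 ± 0.091 and by 0.40 ± 0.091. The medians of all genes were −0.02 and −0.00.

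The same lists were counted after TIP60 depletion, where 14.5% of all genes were called lower and 14.1% higher in HCT116, and 12.4% and 11.8% in SW480. MCM3 alone fell among the 7 helicase genes in HCT116 (−0.17 ± 0.037), and MCM2 alone rose in SW480 (0.38 ± 0.060). The MCM3 call was lost with no low-count filter and with each of the 3 TPM settings, and the MCM2 call without SW480 siTIP60-11 replicate 3. BRPF3, a scaffold of a histone acetyltransferase complex, rose by 0.51 ± 0.071 in HCT116 and by 0.52 ± 0.072 in SW480, and MCM9 rose by 0.55 ± 0.073 and by 0.56 ± 0.115. They were the 2 origin-binding genes that rose in either line, and LRWD1, which binds ORC, fell by 0.33 ± 0.065 in SW480. Of 15 firing genes, 1 rose and 1 fell in HCT116, and 2 rose and 1 fell in SW480; DBF4, the activating subunit of the CDC7 kinase, fell in both, by 0.38 ± 0.058 and by 0.46 ± 0.059. Of 21 turnover genes, 3 rose and 6 fell in HCT116 and 3 fell in SW480, with UBE2C lower in both (−0.57 ± 0.048 and −0.47 ± 0.057). Of 19 E2F and DREAM genes, 4 rose and 2 fell in HCT116 and 3 fell in SW480, and E2F1, an activator-class E2F, rose by 0.72 ± 0.080 in HCT116. The lists' medians, again over means of 2 siRNAs, lay between −0.10 and 0.14 in both lines.

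Across the 10 groups, with each line's mean taken off, most members kept a similar profile, given here as a description over 10 group means that share libraries, controls and depth. ORC6 stood at 18.8% and 22.0% of control with siBRD8-36 and at 59.2% or more in every other group, so the siBRD8-36 groups weigh heavily in its r. The nearest genes were picked for the highest r, so high values follow from the choice. How high r runs between other pairs of genes was not examined. Pearson's r was 0.962 between ORC1 and ORC6, 0.959 between ORC6 and CDC6, 0.953 between CDC6 and GMNN and 0.928 between ORC1 and CDT1. ORC2 and ORC3 followed less closely, with r of 0.411 between them. With members other than ORC5, r reached 0.851 for ORC2 (with GMNN) and 0.822 for ORC3 (with CDT1). ORC5 had a negative r with each of the other 8, from −0.491 with ORC6 to −0.0446 with ORC2. Among 9107 or 9108 genes of at least 10 mean CPM in each line, the 3 closest to ORC6 were ATAD2 (0.993), RRM1 (0.991) and MCM10 (0.991), and those closest to CDC6 were RAD51AP1 (0.99), NSRP1 (0.987) and SGO1 (0.984). CDT1 had MTHFD1L (0.989) and RFC2 (0.98) among its nearest genes, and ORC1 had RIF1 (0.975), POLD1 (0.972) and FBXL20 (0.972). GMNN was nearest to PTP4A1 (0.99), NPC1 (0.987) and C15orf40 (0.977). ORC4 was nearest to MRPL48 (0.982), VPS26A (0.978) and CDK1 (0.972), and ORC2 to CDKN3 (0.948), RICTOR (0.942) and CENPE (0.936). For ORC3 they were TMEM248 (0.966), ITPRID2 (0.958) and LIG3 (0.956), and for ORC5 NFKBIB (0.98), YME1L1 (0.972) and RPAP2 (0.96).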

How the data were processed

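RNA was sequenced as single reads of 60 bases from libraries made of 100 ng total RNA with a directional kit, per the labels' protocols. Per the submitters' processing notes, the authors used Trimmomatic 0.33, STAR 2.7.3a and RSEM 1.3.3 with hg38. No source used here names the annotation release or the strand setting. The deposited files give an expected count and a TPM per gene, both estimated by RSEM for each library without pooling; a deposited FPKM column was not used. Expected counts were rounded to whole numbers, which touched 9.13 to 13.1% of genes per library.

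Levels are CPM with TMM factors over all 30 libraries, or TPM where genes were compared. Changes come from edgeR 4.0.16 (quasi-likelihood, robust, filterByExpr) in R 4.3.3, fitted over the 15 libraries of a line, or all 30 for line comparisons, with Benjamini-Hochberg adjustment over all 15919 (HCT116), 15277 (SW480) or 17411 (both) genes tested. All 9 members passed the low-count filter. Standard errors were taken from the estimate and its F statistic, and 95% intervals are 1.96 standard errors. The text names the 9 members, BRD8 and KAT5, from each list some of the up to 4 called genes per direction whose smaller siRNA change was largest (picked among these after their values were seen), and the 3 genes closest to each member, of which 1 is not reported here. The members and lists were chosen with earlier results of these data known. Alternatives were DESeq2 1.42.0, its size factors, no or a stricter filter, limma 3.58.1 on log2(TPM + 1) or log2(TPM + 0.1), a replicate block, each library left out, only the groups compared, and all 30 libraries in 1 fit. The code was tested on simulated data with known changes. No pair of replicates was identical or as close as sampling noise alone would make it. Gene positions are from GENCODE 29, which held 58444 of the 60617 gene IDs, and promoters from RefSeq.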

Additional observations from a re-analysis of the deposited data

Results flagged for a closer look

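The response to depletion differed between the lines for several members, by the test of the difference itself (change in SW480 minus change in HCT116, edgeR's quasi-likelihood test over 30 libraries, adjusted over 17411 genes). After BRD8 depletion the differences were −0.234 for ORC2, 0.43 for ORC3, −0.282 for ORC4, −0.269 for ORC5, −0.679 for CDC6, 0.728 for CDT1 and −0.502 for GMNN. After TIP60 depletion they were −0.232 for ORC2, −0.418 for ORC5, −0.513 for CDC6 and −0.401 for GMNN. Of all genes, 34.4% passed this test for BRD8 depletion and 31.1% for TIP60 depletion. CDC6 fell further in SW480 after BRD8 depletion, and CDT1 fell less there. After TIP60 depletion CDC6 fell in SW480 and was not called in HCT116. GMNN was called higher in HCT116, a call lost in 13 alternative settings, and was not called in SW480. The ORC2 difference was lost without any 1 of 7 single libraries after BRD8 depletion, and without any 1 of 10 after TIP60 depletion. The differences of ORC2 with both targets and of ORC5 after BRD8 depletion changed sign on the uncentred TPM scale.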

How the results depend on the processing

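Of 2196 values of single members under an alternative, 2056 kept their side of the threshold (62 of these changed sign while past it in neither), 106 lost it, 22 gained it and 12 called values changed sign. All 12 came with limma on TPM: with log2(TPM + 1) and log2(TPM + 0.1), ORC2 after TIP60 depletion in SW480 was 0.0397 and 0.0404, its BRD8 interaction 0.0411 and 0.0393, its TIP60 interaction 0.131 and 0.134 and its control difference −0.225 and −0.230. The ORC5 BRD8 interaction was 0.0301 and 0.0310, and the GMNN control difference −0.0211 and −0.0215. With either pseudocount the members called were 3 (BRD8) and 0 (TIP60) in HCT116, 2 and 0 in SW480, and 2 for the TIP60 interaction, and log2(TPM + 1) called 8 between the TIP60 siRNAs in SW480. All genes called in HCT116 went from 4076 (BRD8) and 4547 (TIP60) to 2485 and 2818, or 2443 and 2798. Centring TPM on library medians, added after the data were seen, called 1 member after TIP60 depletion in HCT116 and 2 in SW480, and 2621 (BRD8) and 2147 (TIP60) genes in SW480, against 4254 and 3702. The cause was not tested. With no filter, only the groups compared or all 30 libraries, 1 member was called after TIP60 depletion in HCT116, and 1 to 2 with a library left out. Leave-one-out counts ran from 3 to 4 for the TIP60 siRNAs compared in HCT116, 5 to 6 for BRD8 in SW480, 3 to 4 for TIP60 in SW480, 6 to 7 for the BRD8 interaction and 3 to 5 for the TIP60 interaction. The CDT1 to GMNN log2 difference in HCT116 ran from −1.09 to −0.83 (BRD8) and −0.52 to −0.42 (TIP60), with exact permutation p = 0.0714, the smallest possible, without a control library. With 1 siRNA it was −0.41 (siBRD8-6), −1.52 (siBRD8-36), −0.30 (siTIP60-2) and −0.66 (siTIP60-11), at p = 0.1 by the exact permutation test, again the smallest possible. The replicate numbers did not pair the samples (median r 0.0429 in HCT116 and −0.00631 in SW480 between same-numbered libraries), and a replicate block changed 1 of 117 member values, CDT1 after BRD8 depletion in SW480 (−0.59, adjusted p = 0.0599, edgeR). Of the pathway lists, called genes ranged over the alternatives from 7 to 7 (helicase), 5 to 11 (firing), 5 to 10 (turnover), 1 to 5 (origin binding) and 2 to 7 (E2F) after BRD8 depletion in HCT116, and 2 to 7, 4 to 14, 7 to 12, 1 to 4 and 3 to 12 in SW480. After TIP60 depletion they ranged, in the same order, from 0 to 1, 0 to 2, 7 to 10, 0 to 2 and 3 to 7 in HCT116, and 0 to 1, 0 to 3, 2 to 4, 0 to 3 and 0 to 4 in SW480. Depth limits ORC1 most, with 35 to 39 counts per siBRD8-36 library in SW480.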
